A study of Homo sapiens with 6 samples.

Results

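Expression of 8 genes of pericellular proteolysis was followed in A375 melanoma cells given vemurafenib. They are the plasminogen activators PLAT and PLAU, the urokinase receptor PLAUR, the serpins SERPINE2, SERPINB2, SERPINF1 and SERPINH1, and the plasminogen-binding annexin ANXA2. They were listed by name, with earlier results of these data known. Every probe of the deposited intensity table whose platform annotation gives 1 of these gene symbols was taken. This found 11 probes of 7 of the 8 genes, among 48103 probes and 20044 named genes in all. SERPINB2 is not analysed here because the annotation pairs no probe with it.

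A375 is a human melanoma cell line that carries an activating mutation of the kinase BRAF, and vemurafenib is an inhibitor of that mutant kinase. The study compared total RNA of cells treated for 24 h with vemurafenib at 3 µM with that of cells given DMSO, the solvent, for the same time. There were 3 samples in each group, named unnumbered, 1 and 2 in the labels, and values below are given in that order. Each sample was hybridised as biotin-labelled cRNA to an Illumina bead array, which gives a brightness, the intensity, for each probe. The line stands for a single tumour, no further allele or agent is named, and nothing in the labels says that samples of a group came from separate cultures, so p-values reflect only how much these samples vary, which could be technical variation.

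Plasminogen is an inactive protease that circulates in plasma. Tissue-type activator (PLAT) and urokinase (PLAU) cut it into plasmin, which dissolves fibrin and degrades other matrix proteins. The receptor PLAUR holds urokinase at the cell surface, annexin A2 with its partner S100A10 holds plasminogen and tissue-type activator there, and serpins such as SERPINE2 and SERPINB2 inactivate the activators by binding them irreversibly. SERPINF1 and SERPINH1 share the serpin fold but do not inhibit proteases: SERPINF1 is a secreted anti-angiogenic factor, and SERPINH1 is a chaperone of procollagen in the endoplasmic reticulum. In melanoma, urokinase and its receptor have long been studied for their part in invasion.

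The median intensity was between 91.0 and 94.5 on the 6 arrays, and between 38.2% and 41.7% of probes had a detection p-value under 0.01, called detected from here on. The samples numbered 2 stood apart in both groups: over the 18747 kept probes the root mean square log2 difference between the unnumbered and 1 samples was 0.298 (DMSO) and 0.321 (vemurafenib), and that between either of them and sample 2 was 0.534 to 0.556. Member results are therefore also given without both samples numbered 2. That leaves the unnumbered and 1 samples, which may be technical repeats, so small p-values there may reflect their likeness. DUSP6, a phosphatase induced by ERK, fell by 3.16 ± 0.27 (log2, SE; limma adjusted p = 0.00132) as a check of the drug's effect. Of 7 melanocyte lineage markers with a probe, 2 were kept: SOX10 had a mean of 10.08 with DMSO and 10.47 with vemurafenib, and MITF rose from 5.99 to 6.74 (adjusted p = 0.0333), while TYR, TYRP1 and S100B were detected on 0 of 6 arrays. Of 6 fibroblast markers 3 were kept and 1, DCN, rose (limma adjusted p = 0.0231), while 3 rose with the replicate number as a block. DCN was detected in 0 of 3 DMSO and 3 of 3 vemurafenib samples, so it was kept only through the group where it was high. Measured from the lowest detected signal of the DMSO arrays its rise was 1.93-fold, which is not a lower bound. The summed signal of the fibroblast markers was 41.2 to 56.9 in the DMSO samples and 101 to 233 in the vemurafenib samples, with THY1 undetected on every array. Endothelial markers had 0 of 5 kept (summed signal 19.7 to 32.0 against 27.8 to 41.4), leukocyte markers 3 of 6 kept and 0 changed (427 to 1090 against 875 to 1460; PTPRC and CD3E undetected; 1, CD68, rose with the block, adjusted p = 0.0467), and keratinocyte markers 2 of 4 kept and 0 changed (983 to 1280 against 1210 to 1590; KRT5 and KRT1 undetected); at an unadjusted limma p under 0.05 these last 2 lists also had 0. The part of these markers in the member results was not tested. In bulk RNA such as this, fewer cells of a type and less RNA per cell cannot be told apart.

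PLAT and PLAUR fell with vemurafenib, by 3.98-fold and 3.03-fold, and they were the 2 members whose change passed the test. PLAU, dim on these arrays, was also lower in every vemurafenib sample but was too weak to be tested. The serpins SERPINE2, SERPINF1 and SERPINH1 and the annexin ANXA2 did not pass, and SERPINF1 was the member whose call changed when samples were paired by number. Of the 6 genes with a kept probe, detected on at least 3 of the 6 arrays, 2 fell and 0 rose (limma, Benjamini-Hochberg adjusted over all kept probes, threshold 0.05); at an unadjusted p under 0.05, 2 fell and 2 rose. Over all 11220 genes tested, 7.95% fell and 8.09% rose. By probe, 4 of the 10 kept member probes fell and 0 rose, and 4 fell and 1 rose without both samples numbered 2. For 5 of the 10 the vemurafenib values lay wholly below the DMSO values and for 1 wholly above, where 17.4% and 19.2% of all kept probes did so. The median log2 change of the 6 members was -0.00, beside 0.05 over all genes.

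**Figure D1:**
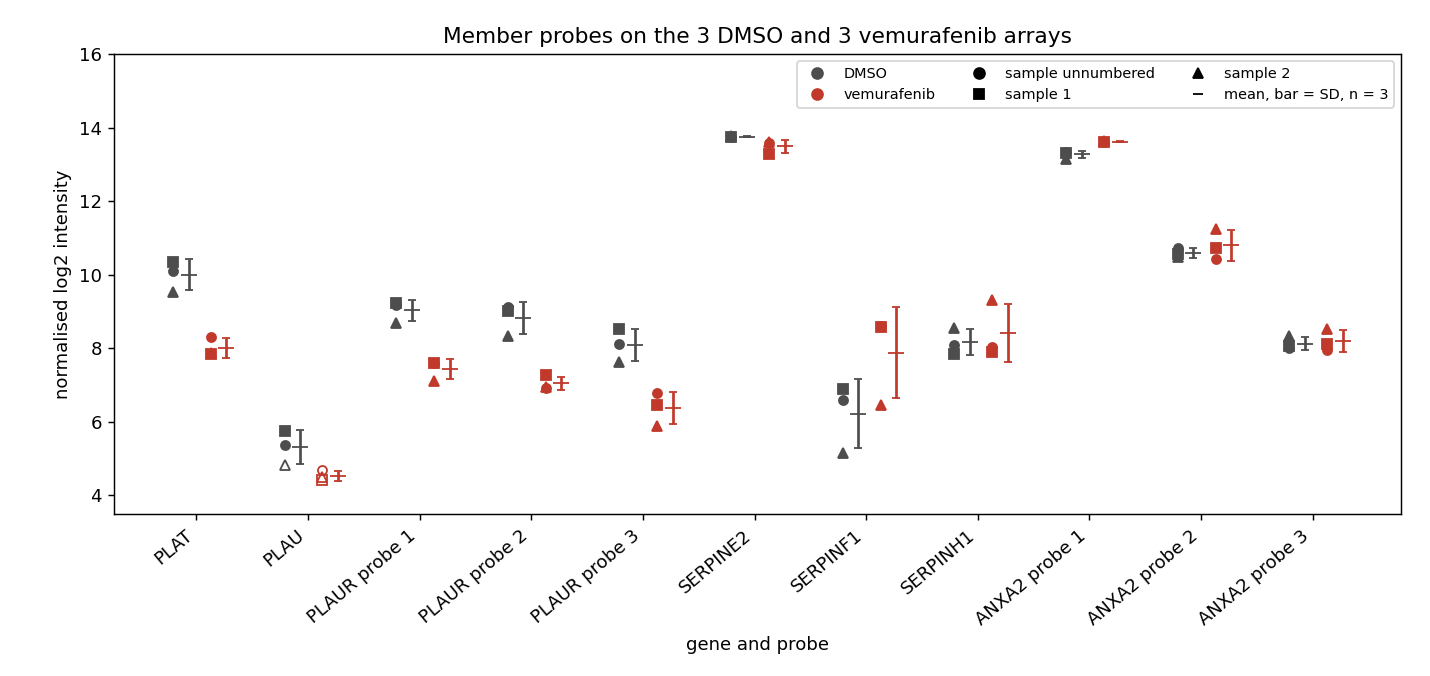
Normalised log2 intensity (vertical axis) of the 11 member probes on each array, DMSO in grey and vemurafenib in red, with circles, squares and triangles for the unnumbered, 1 and 2 samples, open symbols where the probe was not detected, and a bar for the mean and SD of 3 samples. PLAT and the 3 PLAUR probes separate the groups widely, while for SERPINF1 the vemurafenib sample numbered 2 lies below 2 of the DMSO samples, and sample 2 is the lowest of each group.

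PLAT, tissue-type plasminogen activator, was read by the probe ILMN_1738742. Its raw intensity was 1134, 1321 and 901 in the DMSO samples and 439, 293 and 295 in the vemurafenib samples. After background correction and normalization these were log2 values of 10.11, 10.35 and 9.54 against 8.32, 7.84 and 7.86. Every vemurafenib sample lay more than a log2 unit below the lowest DMSO sample. The SD was 0.41 among the DMSO samples and 0.27 among the vemurafenib samples (n = 3 each). The mean fell to 8.01, a log2 change of -1.99 ± 0.25 (SE; 95% interval -2.56 to -1.42), or 3.98-fold lower (limma adjusted p = 0.00515). The differences of same-named samples were -1.80, -2.50 and -1.68. Only 0.882% of the 11220 genes fell by more. Without both samples numbered 2 the log2 change was -2.15 (adjusted p = 7.49e-04), and with any single sample left out the adjusted p was at most 0.0309. With the unnumbered and 1 samples of each group averaged, it was -1.91 and did not pass (limma adjusted p = 0.108).

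PLAU, urokinase, was read by ILMN_1656057, whose signal lay close to background. Raw intensities were 110.9, 120.0 and 100.8 with DMSO and 96.7, 88.2 and 90.8 with vemurafenib, where the median probe had 91.0 to 94.5. The probe was detected in 2 of 3 DMSO samples and in 0 of 3 vemurafenib samples, so it did not enter the fit. Normalised log2 values were 5.36, 5.76 and 4.83 against 4.68, 4.41 and 4.49, and the groups did not overlap. The measured means were 5.32 ± 0.46 and 4.53 ± 0.14 (SD, n = 3 each), 1.72-fold apart. With values below the lowest detected signal of their array raised to it, the difference was 1.71-fold. That signal is of any probe and is not the detection limit of this one. Because the probe is not well above background with vemurafenib, the size of the difference is uncertain and neither value is a bound. The log2 difference of -0.79 depended on the background step and was -0.27 with no background correction. Fitted with no filter on dim probes, it did not pass (limma adjusted p = 0.152).

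PLAUR, the glycolipid-anchored receptor that concentrates urokinase on the cell surface, had 3 probes, and all fell. Probe 1 (ILMN_2374340), the brightest, read raw intensities of 619.8, 628.3 and 514.5 with DMSO and 296.8, 259.3 and 205.0 with vemurafenib. As normalised log2 values these were 9.17, 9.23 and 8.70 against 7.59, 7.59 and 7.12, again with a gap between the groups. The mean fell from 9.03 ± 0.29 to 7.43 ± 0.27 (SD, n = 3 each), a log2 change of -1.60 ± 0.22 (SE; 95% interval -2.10 to -1.10), or 3.03-fold lower (limma adjusted p = 0.00680). The differences of same-named samples were -1.58, -1.63 and -1.58 for this probe, closer to each other than those of PLAT or of the other PLAUR probes. Of all genes tested 1.77% fell by more. Without both samples numbered 2 the log2 change was -1.61 (adjusted p = 6.89e-04). With the unnumbered and 1 samples of each group averaged, it was -1.59 and did not pass (limma adjusted p = 0.125).

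The other PLAUR probes gave falls of like size. Probe 2 (ILMN_1691508) had log2 values of 9.14, 9.01 and 8.32 with DMSO and 6.91, 7.26 and 6.96 with vemurafenib, a change of -1.78 ± 0.24 (SE; adjusted p = 0.00680). Probe 3 (ILMN_2408543) had 8.13, 8.51 and 7.64 against 6.77, 6.46 and 5.89, a change of -1.72 ± 0.29 (SE; adjusted p = 0.0138). Neither overlapped between the groups. Same-named samples differed by -2.22, -1.75 and -1.36 for probe 2 and by -1.36, -2.05 and -1.75 for probe 3, further apart than for probe 1. Probe 3 lost its call without DMSO unnumbered (adjusted p = 0.0541) and without vemurafenib 1 (0.0527); probes 1 and 2 kept theirs without each sample in turn. No source used here says which PLAUR transcripts each probe reads.

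**Figure D2:**
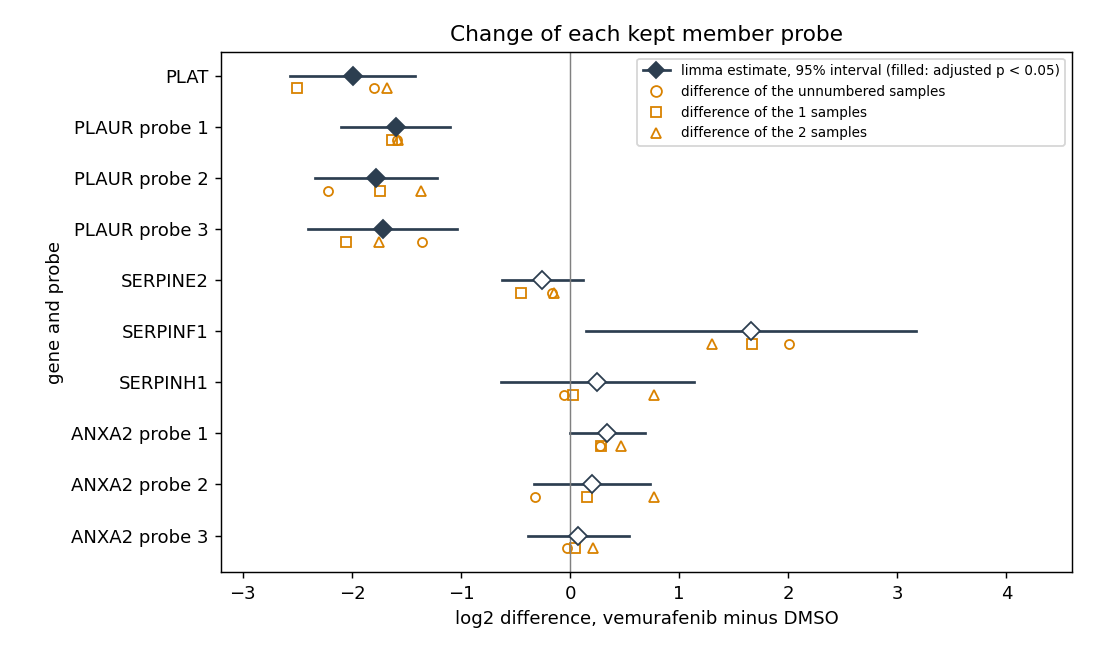
Log2 difference, vemurafenib minus DMSO (horizontal axis), of the 10 kept member probes: diamonds with 95% intervals are the limma estimates over 6 arrays, filled where the adjusted p is below 0.05, and the orange symbols are the differences of same-named samples. PLAT and the 3 PLAUR probes lie left of zero with every sample difference, and the 3 differences of SERPINF1 all lie right of zero although its interval is wide.

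The promoters of PLAUR, ANXA2 and PLAU are shown because the falling receptor and the annexin, which did not pass, both hold a letter match to AP-1, the site of the FOS and JUN factors that act downstream of ERK, whereas urokinase, the ligand of the receptor, does not in this window. The sequences are the 250 bases before the start of transcription, from RefSeq (GRCh38.p14), which has a window for 6 of the 8 members. PLAT and SERPINF1 have no window there, so PLAT, which also fell, is not part of this description. Capitals mark matches to AP-1 (TGANTCA) or to the GC box bound by SP1 (GGGCGG) on either strand; in ANXA2 the 3 GC box matches share letters. PLAUR lies at chr19:43670170-43670419 on the minus strand, ANXA2 at chr15:60397987-60398236 on the minus strand, and the downstream of 2 PLAU starts at chr10:73910882-73911131 on the plus strand.
PLAUR: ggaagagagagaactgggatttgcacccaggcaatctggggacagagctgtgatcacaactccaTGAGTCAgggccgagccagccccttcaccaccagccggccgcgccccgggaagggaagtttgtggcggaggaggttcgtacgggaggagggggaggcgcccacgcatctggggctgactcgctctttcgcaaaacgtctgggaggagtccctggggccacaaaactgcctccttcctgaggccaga
ANXA2: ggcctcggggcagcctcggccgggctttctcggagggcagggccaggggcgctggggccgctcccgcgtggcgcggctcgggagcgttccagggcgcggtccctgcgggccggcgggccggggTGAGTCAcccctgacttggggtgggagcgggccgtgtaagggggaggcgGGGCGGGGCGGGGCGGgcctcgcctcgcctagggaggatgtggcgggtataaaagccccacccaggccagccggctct
PLAU: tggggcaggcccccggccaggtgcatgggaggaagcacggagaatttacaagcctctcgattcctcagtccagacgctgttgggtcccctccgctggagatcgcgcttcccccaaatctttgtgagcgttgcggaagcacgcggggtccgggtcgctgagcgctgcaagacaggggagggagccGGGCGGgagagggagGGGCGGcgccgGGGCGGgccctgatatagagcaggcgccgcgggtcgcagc
The AP-1 match begins at base -186 in PLAUR and at -127 in ANXA2, counted from the start of transcription. PLAUR holds 0 GC boxes and the PLAU window shown holds 3, at -66, -51 and -40. The window of the other PLAU start holds 0 matches to AP-1, to the GC box or to the ETS core GGAAG. Among all 35116 windows of this length 6.57% hold the AP-1 letters and 42.6% the GC box, on either strand. The ETS core GGAAG, bound by factors that include ERK substrates, occurs 4 times in PLAUR and 3 times in this PLAU window, but 65.1% of all windows hold it. The cAMP response element TGACGTCA (1.65% of windows) was found in 0 of the 9 member windows. The SERPINB2 window holds an AP-1 match at -102. A match is a description of these letters and not of binding.

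ANXA2, the annexin that with S100A10 gathers plasminogen on the cell surface, was bright and did not pass. Probe 1 (ILMN_2409167) had log2 values of 13.34, 13.32 and 13.16 with DMSO and 13.61, 13.60 and 13.63 with vemurafenib. All vemurafenib values lay above all DMSO values, by a small margin. The log2 change was 0.34 ± 0.15 (SE; 95% interval 0.00 to 0.68; adjusted p = 0.154). It passed with no background correction (adjusted p = 0.0449), on the deposited log2 values (0.0457) and with limma's trend and robust options (0.0178). Without both samples numbered 2 the change was 0.28 (adjusted p = 0.205).

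The other 2 ANXA2 probes overlapped between the groups. Probe 2 (ILMN_1711899) had 10.74, 10.57 and 10.48 against 10.42, 10.73 and 11.25 (change 0.20 ± 0.23, SE; adjusted p = 0.595), and probe 3 (ILMN_1755937) had 7.99, 8.07 and 8.32 against 7.97, 8.11 and 8.53 (0.08 ± 0.20, SE; adjusted p = 0.829). ANXA2 has processed pseudogenes of near-identical sequence, so its signal may include theirs and is uncertain to that extent. Probes annotated to ANXA2P1 had changes of 0.60 and 0.56 (adjusted p = 0.0662 and 0.0701; 0.0382 and 0.0369 with the replicate block), that of ANXA2P3 had 0.40 (0.169) and that of ANXA2P2 had -0.07 (0.775).

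SERPINE2, protease nexin 1, which inhibits urokinase, tissue-type activator and thrombin, was among the brightest probes of the array (ILMN_1655595). Its raw intensity was 14910, 14185 and 13670 with DMSO and 12127, 10144 and 11892 with vemurafenib. The log2 values were 13.75, 13.74 and 13.76 against 13.58, 13.29 and 13.61, where 14.38 is the top of each array after normalization. The vemurafenib values lay below the DMSO values without overlap, but the change of -0.25 ± 0.16 (SE; 95% interval -0.62 to 0.12) did not pass (limma adjusted p = 0.317). Without both samples numbered 2 it was -0.31 (adjusted p = 0.216).

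SERPINF1, pigment epithelium-derived factor, was the member with the widest spread within a group. Its probe (ILMN_2141482) had raw intensities of 163.0, 178.3 and 107.1 with DMSO and 516.1, 433.4 and 155.0 with vemurafenib. The log2 values were 6.60, 6.90 and 5.15 against 8.61, 8.57 and 6.45. The groups overlapped, since vemurafenib 2 lay below DMSO unnumbered and DMSO 1, and sample 2 was the lowest of each group. The mean was 6.22 ± 0.94 with DMSO and 7.88 ± 1.23 with vemurafenib (SD, n = 3 each), a log2 change of 1.66 ± 0.65 (SE; 95% interval 0.15 to 3.17) that did not pass (limma adjusted p = 0.127).

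Each same-named pair nevertheless differed in the same direction for SERPINF1, by 2.01, 1.67 and 1.30. With the replicate number as a block the standard error was 0.18 and the gene rose (limma adjusted p = 0.00249); that fit called 13.6% of all genes as falling and 16.2% as rising, and of the 6 members 2 fell and 1 rose. Without both samples numbered 2 SERPINF1 rose by 1.84 (adjusted p = 6.67e-04), and without vemurafenib 2 alone by 2.37 (0.0156). With the unnumbered and 1 samples of each group averaged, its change was 1.57 and did not pass (limma adjusted p = 0.367). An exact two-sided permutation test of the group means gave p = 0.3, where 3 samples against 3 cannot go below 0.1. The summed fibroblast markers given above were also higher with vemurafenib, and their part in the SERPINF1 values was not tested.

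SERPINH1, the collagen chaperone HSP47, was read by ILMN_1751028. The log2 values were 8.08, 7.86 and 8.54 with DMSO and 8.03, 7.89 and 9.32 with vemurafenib. The groups overlapped, and vemurafenib 2 alone was high. The change was 0.25 ± 0.38 (SE; 95% interval -0.64 to 1.13; adjusted p = 0.699). It was -0.20 without vemurafenib 2 and -0.011 without both samples numbered 2, neither past the threshold.

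**Figure D3:**
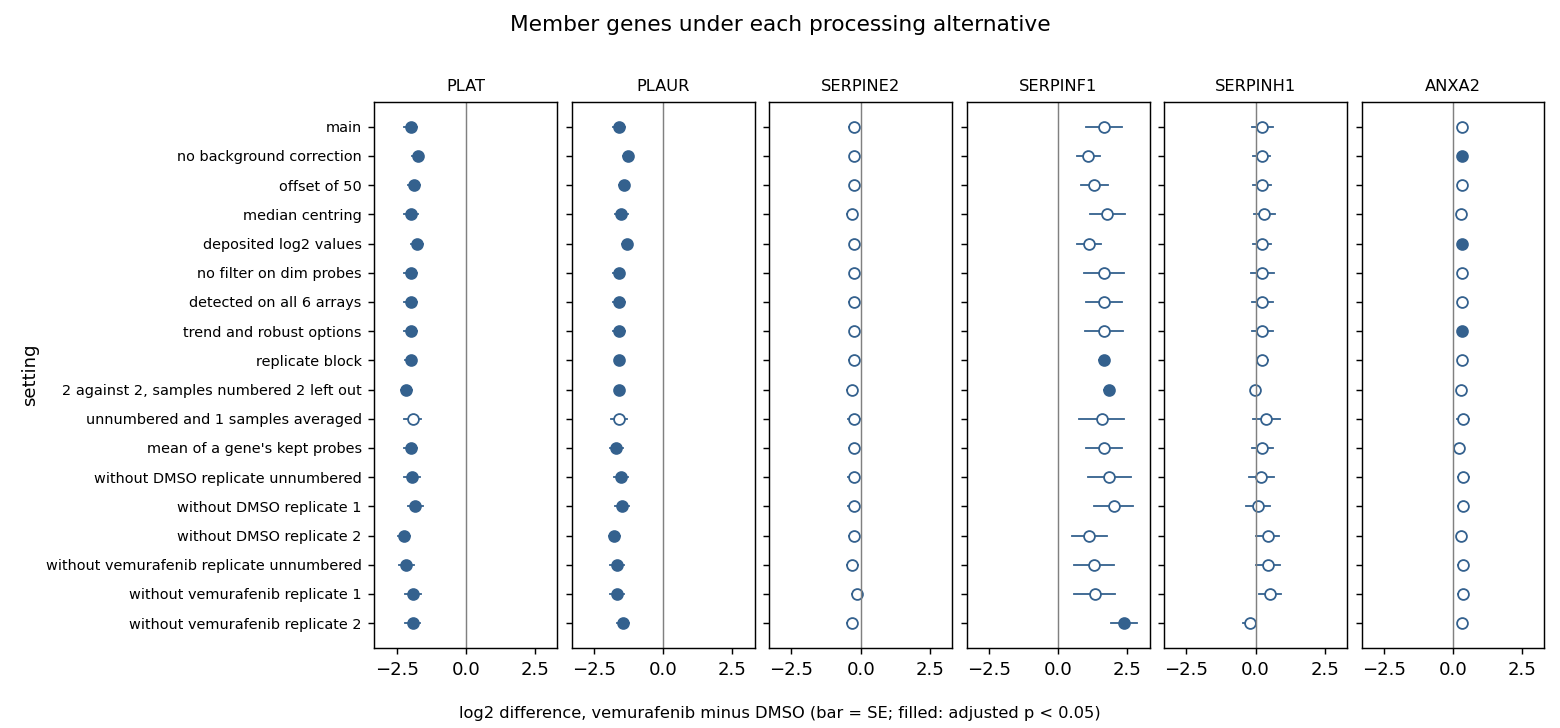
Log2 difference, vemurafenib minus DMSO (horizontal axis, bars for the SE), of the 6 member genes under the reported setting and 17 alternatives (rows), filled where the adjusted p is below 0.05. PLAT and PLAUR are filled in every row but that with the unnumbered and 1 samples averaged, and SERPINF1 is filled in 3 alternatives.

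Beyond the members, 120 genes of the plasminogen system and its relatives were listed in 8 groups. Of these, 63 had a kept probe, 6 fell and 4 rose (9 and 9 with the replicate block, 12 and 9 without both samples numbered 2), with a median log2 change of 0.07. The shares of the main fit, 6 and 4 of 63, are near the 7.95% and 8.09% called over all genes. The larger counts go with larger totals. The block called 13.6% of all genes as falling and 16.2% as rising. Without both samples numbered 2, 1687 of all 11220 genes fell and 1962 rose. Of the 10 called genes, the integrin subunit ITGB3 alone kept its call without each sample in turn, and the others lost theirs without 3 to 5 of the 6 samples, at adjusted p-values up to 0.149. ITGB3 was detected in 3 of 3 DMSO and 0 of 3 vemurafenib samples. It thus passed the filter on dim probes only through the group where it was high, and its steadiness is no separate support for its fall.

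Among other core proteins of the system 7 of 16 were kept, of which 1 rose and 2 fell. TFPI2, a Kunitz-type inhibitor of plasmin, fell from 6.75 to 5.37 (log2 change -1.38 ± 0.32, SE; adjusted p = 0.0296). F12, the contact factor XII that can also cut plasminogen, fell from 8.03 to 7.23 (-0.79 ± 0.20; 0.0396). SERPINI1, neuroserpin, an inhibitor of tissue-type activator that is counted here and among the serpins, rose from 4.78 to 6.47 (1.69 ± 0.45, adjusted p = 0.0450). It was detected in 1 of 3 DMSO samples. The sizes of these changes depended on the background step. With no background correction SERPINI1 had a change of 0.75 and did not pass (limma adjusted p = 0.0649). TFPI2 then had -0.68 and F12 had -0.58, and both passed. A2M, a broad protease inhibitor, had a change of 1.04 (adjusted p = 0.206; 0.0362 with the block). PLG, plasminogen itself, was detected on 0 of 6 arrays.

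Plasminogen receptors and ANXA2 partners had 8 of 8 kept, of which 0 rose and 0 fell (limma; 1 and 1 at an unadjusted p under 0.05). With the replicate block 0 rose and 1 fell. The latter was HMGB1, a chromatin protein that also binds plasminogen outside the cell. It had a change of -1.20 (limma adjusted p = 0.0869, and 0.00348 with the block), with differences of same-named samples of -1.05, -1.16 and -1.40. Its other kept probe had -0.45. S100A10, the partner of ANXA2, had means of 13.64 and 13.78 (0.14; 95% interval -0.22 to 0.51; adjusted p = 0.582). ENO1, an enolase that also binds plasminogen at the surface, had 13.77 and 13.68 (-0.09; -0.44 to 0.25; 0.709).

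Of the 17 partners of the urokinase receptor and clearance receptors 9 were kept, of which 1 rose and 2 fell. The vitronectin receptor chains parted. ITGB3 fell, from detected in 3 of 3 DMSO samples to 0 of 3 vemurafenib samples (limma adjusted p = 0.00480). Down to the lowest detected signal the fall was 2.41-fold, but its size depended on the background step. The log2 change was -1.38 in the main fit, -0.51 with no background correction and -0.50 on the deposited log2 values. ITGAV, the alpha chain of that receptor, rose from 7.92 to 8.72 (0.81 ± 0.18, SE, adjusted p = 0.0286). EGFR, a receptor kinase that PLAUR can signal through, fell from 6.75 to 5.70 (-1.06 ± 0.25, SE, adjusted p = 0.0305), while its other kept probe had -0.24. With no background correction the change of EGFR was -0.55 and passed (limma adjusted p = 0.0374). ITGA5, a fibronectin receptor chain, had -0.57 (0.195; 0.0491 with the block).

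Other serpins had 8 of 27 kept, with SERPINI1 risen and SERPINB7 fallen (-1.36 ± 0.30, SE; adjusted p = 0.0258; its other probe -1.53); SERPINB1 had a change of 0.87 (0.241; 0.00936 with the block). Other annexins had 7 of 11 kept. ANXA4 rose by 1.32 ± 0.32 (SE, adjusted p = 0.0333) and was detected in 2 of 3 DMSO samples. ANXA10 fell by 1.20 ± 0.24 (SE, adjusted p = 0.0194). With no background correction ANXA4 had a change of 0.55 and did not pass (limma adjusted p = 0.0531), while ANXA10 had -0.58 and passed. Among 12 substrates cleaved by plasmin or its activators 6 were kept, of which 1 rose and 0 fell (limma; 3 and 1 at an unadjusted p under 0.05). The risen gene was MST1, macrophage-stimulating protein (2.25 ± 0.56, SE; adjusted p = 0.0366), which has near-identical copies in the genome and is uncertain for that reason. PDGFD, a growth factor released by cleavage, had 1.06 (0.0802; 0.0285 with the block).

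Proteins that share the LY6/uPAR fold with PLAUR had 5 of 15 kept, of which 0 rose and 0 fell (limma; 1 and 1 unadjusted); the brightest, LY6E, had a change of 0.07 (adjusted p = 0.849), and LYPD1 had 1.09 (0.239; 0.0272 with the block). Collagen-folding partners of SERPINH1 in the endoplasmic reticulum had 16 of 18 kept, of which 0 rose and 0 fell (limma; 1 and 2 unadjusted). With the block 1 rose and 1 fell: CRTAP, a partner of a collagen prolyl hydroxylase, had a change of 0.55 (adjusted p = 0.146; 0.0431 with the block), and HSPA5, the chaperone BiP, had -0.51 (0.0652; 0.0409). HSP90B1, a chaperone of that compartment, had -0.41 (95% interval -0.86 to 0.05; adjusted p = 0.198), and PLOD1, a lysyl hydroxylase of collagen, had 0.00 (-0.63 to 0.64; 0.995).

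**Figure D4:**
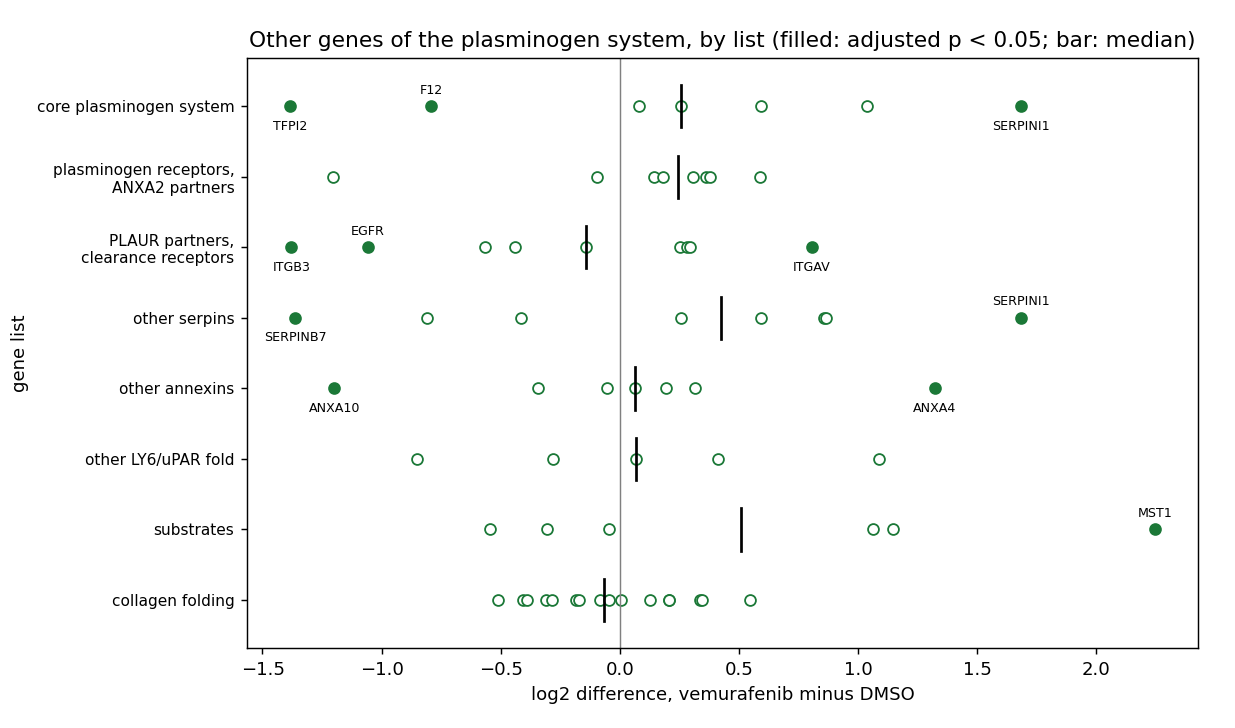
Log2 difference, vemurafenib minus DMSO (horizontal axis), of the 63 kept genes in 8 lists of the plasminogen system (rows), each point 1 gene, filled and named where the adjusted p is below 0.05, with a bar for the list's median. The 6 genes that fell and the 4 that rose are spread over 5 of the lists, and SERPINI1 appears in 2 of them.

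The genes most like a member across the 6 arrays were found by the root mean square difference of their log2 values, each centred on its own mean. For PLAT these were the ERK phosphatase genes DUSP5 (0.160) and DUSP4 (0.187) and the clock-related factor NPAS2 (0.164), beside a spread of 1.04 for PLAT itself. For PLAUR they were STC2 (0.106), NPAS2 (0.127) and PMAIP1 (0.132), beside 0.832. SERPINF1 was closest to DBP (0.153), PLAAT4 (0.183) and LY96 (0.209), beside 1.22. SERPINH1 was closest to TMTC2 (0.131), SUPT6H (0.159) and OAF (0.166), beside 0.513. The nearest genes of SERPINE2 were COPS6 (0.0309), LSM4 (0.0376) and NME2 (0.0387), beside 0.165, and those of ANXA2 were KIFAP3 (0.0312), RCN1 (0.0313) and BTNL10P (0.0314), beside 0.181. Likeness over 6 arrays that share 2 groups is a description of these profiles.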

How the data were processed

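Total RNA of 3 DMSO and 3 vemurafenib samples of A375 cells, labelled with biotin per the labels' protocols, was read on bead arrays of Illumina. For each probe the authors deposited, per the file headers, an intensity that the values show to be on a linear scale, not normalized, and a detection p-value, for which no source used here states the method. The authors also deposited a table of log2 values whose method is not stated; they differ from log2 quantile-normalized intensities with no background correction by at most 0.0513, each with an array median of 6.54. That table was used as an alternative.

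In limma 3.58.1 (R 4.3.3) the 48103 probes with values on every array (of 48107) were corrected by normexp from the detection p-values with an offset of 16, taken to log2 and quantile-normalized. The 18747 probes with a detection p-value under 0.01 on at least 3 of 6 arrays were kept, and the probe of highest mean signal stood for each of 11220 genes. Vemurafenib minus DMSO was fitted over all 6 samples with lmFit and eBayes, with Benjamini-Hochberg adjustment over all kept probes and a threshold of 0.05. Arrays have no count depth, so their number limits the precision. A fold difference against an undetected group uses, per array, the higher of the probe's own value and the lowest detected signal of any probe. It depends on the background step and is not a lower bound. Summed marker signals are linear normalised signals after subtraction of the offset. Genes were named by the platform annotation (30111 probes with 1 symbol, 30072 matched to current genes). Promoters came from RefSeq (GRCh38.p14). The fit was tested on simulated data.

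The main fit is unpaired, and the replicate number was used as a block in an alternative fit only. Same-numbered samples deviated together from their group means. The correlations over probes were 0.189 for the unnumbered, 0.351 for the 1 and 0.523 for the 2 samples. These values cannot show that the number pairs samples, because correlations between differently numbered samples are not given here for comparison. Both samples numbered 2 also stood apart, which alone can make the other deviations alike. The labels do not say what the number marks.

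The members and gene lists were chosen with earlier results of these data known. Named genes were all members, PLG, S100A10 and DUSP6, up to 6 called genes per list by size of change, up to 2 of highest mean signal where none was called, and the 3 genes most like each member; the ANXA2 pseudogenes, whose sequence is shared, and the genes called only with the replicate block were added after their values were seen.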

Additional observations from a re-analysis of the deposited data

How the results depend on the processing

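The falls of PLAT and PLAUR held in 16 of 17 alternatives, with log2 changes of -2.22 to -1.74 and -1.77 to -1.29; with the unnumbered and 1 samples of each group averaged, in case they are technical repeats, 0 member genes and 0 member probes fell (adjusted p = 0.108 and 0.125), where 12 genes fell and 14 rose in all. Of 102 member changes under the alternatives 92 kept direction and side of the threshold, 2 lost and 6 gained the call, and SERPINH1 turned from 0.25 to -0.011 with samples numbered 2 left out and ranged from -0.20 to 0.51 without each sample in turn, the former without vemurafenib 2. The log2 difference of PLAU, -0.79, shrank to -0.27 with no background correction, -0.38 with an offset of 50 and -0.26 on the deposited values. Members that rose, by gene and by probe, were 1 in place of 0 with no background correction, on the deposited log2 values and with trend and robust options (ANXA2), and with the replicate block and with samples numbered 2 left out (SERPINF1). Without each sample in turn 2 member genes fell, 0 to 1 rose, 3 to 4 probes fell and 0 to 1 rose. Listed genes that fell were 12 with samples numbered 2 left out, 2 with no filter on dim probes and 0 with samples averaged, and 1 to 8 without each sample; those that rose were 9, 0 and 0 in the same settings, 9 with the replicate block, 2 with no background correction, on the deposited values and for probes detected on all 6 arrays, and 0 to 7 without each sample. The listed counts differed between single samples left out: 2 fell without DMSO unnumbered or 1, 1 without vemurafenib unnumbered or 1, and 7 rose without vemurafenib 2. The paired fit (replicate block) changed no other member call. Over all genes 892 fell and 908 rose, against 1531 and 1813 with the block, 1687 and 1962 with samples numbered 2 left out, and 447 and 497 with no filter; with median centring 60.8% of calls were higher, beside 50.4%. The causes were not tested. Signal near background limits PLAU.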
